A study of Homo sapiens with 6 samples.

Results

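miR-31-5p (hsa-miR-31-5p in the deposited values) is the guide strand of a microRNA known in breast cancer as a suppressor of invasion and metastasis. Its level was followed in the 6 small RNA libraries of MDA-MB-231 cells, a human cell line of triple-negative breast cancer. The member was found as every row of the deposited values whose name starts with hsa-miR-31-, which gave 1 of the 413 listed miRNAs, and no row was found for the 3p arm. The miRNA was chosen by its own normalized values, which were low in the vehicle libraries and high in WA replicates 1 and 2. These values are therefore given as a description with no test.

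Vehicle-treated cells (n = 3) were compared with cells given Withaferin A (WA), a steroidal lactone of the plant Withania somnifera, at 2 µM for 24 h (n = 3). The study's methods give DMSO as the vehicle, while the sample labels describe these cells as without treatment. The labels name the same cell line for all libraries, with no genetic change described, and whether all libraries came from the same cells was not tested. Below, values are given in the order of replicates 1, 2 and 3. Each normalized value is the number of reads of a miRNA divided by a size factor of its library. Within a library all values were multiples of one smallest unit, which is taken here as 1 read wherever reads are given.

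A miRNA works by loading into an Argonaute protein, where bases 2 to 8 of the strand, the seed, pair with target mRNAs and lower their translation or stability. Known targets of miR-31-5p include RHOA, a small GTPase of the cytoskeleton, RDX, which links actin to the membrane, and ITGA5, an integrin subunit of adhesion. The miRNA is known to be low in many metastatic breast cancer cells, and in other tumour types, such as colorectal cancer, it is known to be high. Its hairpin is cut from the transcript of the long noncoding host gene MIR31HG, in the same chromosome band as the tumour suppressor gene CDKN2A. No mRNA was measured in these libraries.

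The mature strand and its hairpin are shown because the seed decides which targets can pair and because the count depends on telling this strand from its relatives. They were taken from RefSeq (GRCh38.p14), with the seed of the mature strand and the whole mature strand within the hairpin in capitals.
miR-31-5p: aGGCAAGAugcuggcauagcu
MIR31 hairpin: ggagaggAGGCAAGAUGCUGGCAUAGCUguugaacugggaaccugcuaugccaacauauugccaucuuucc
The hairpin has 71 bases and lies on the minus strand at chr9:21512115-21512185. The mature strand takes bases 8 to 28 of it, at chr9:21512158-21512178. In GENCODE release 44 the hairpin is intronic in MIR31HG, which runs from 21380073 to 21559891 on the same strand. Of the 27 annotated MIR31HG transcripts, 21 span the hairpin and 0 have an exon over it.

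No other mature miRNA of the 2370 names in the RefSeq table carried the seed of miR-31-5p. The closest of them in an ungapped comparison, shifted by up to 6 bases, was miR-593-5p, which matched 15 of the 21 bases and was not among the listed miRNAs. Among listed miRNAs with a sequence, the closest was let-7d-5p with 12 of 21 bases. A mature sequence was found for 368 of the 413 listed miRNAs, or 89.1%. The GC content of miR-31-5p was 52.4%, beside a median of 50% over those 368.

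The libraries differed in depth and in how alike they were. Summed over the 413 listed miRNAs, the vehicle libraries held 710878 to 4778066 reads and the WA libraries 156442 to 2232934. Reads of other RNAs are not in these sums. Compared over all 413 miRNAs as log2(normalized value + 1), WA replicates 1 and 2 had a Pearson r of 0.964. For WA replicate 3, r was 0.630 and 0.641 against these and 0.772 to 0.797 against vehicle libraries. These correlations run across miRNAs and not across replicates. Vehicle replicate 1 had an r of 0.785 and 0.792 against the other vehicle libraries, which had 0.987 between them. WA replicate 3 thus stood apart from its group, as vehicle replicate 1 did to a lesser degree. WA replicates 1 and 2 also differed from the other 4 libraries in markers of cell type, given further on.

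Under vehicle, the normalized value of miR-31-5p was 33.9, 5.43 and 8.86. Under WA it was 2777, 3005 and 23.3. WA replicates 1 and 2 were high, whereas WA replicate 3 lay among the vehicle libraries, below vehicle replicate 1. The groups therefore overlapped. In reads, the vehicle libraries held 25, 19 and 29 and the WA libraries 479, 1682 and 31. Every library was above the 3 reads that a count of 0 would allow.

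**Figure D1:**
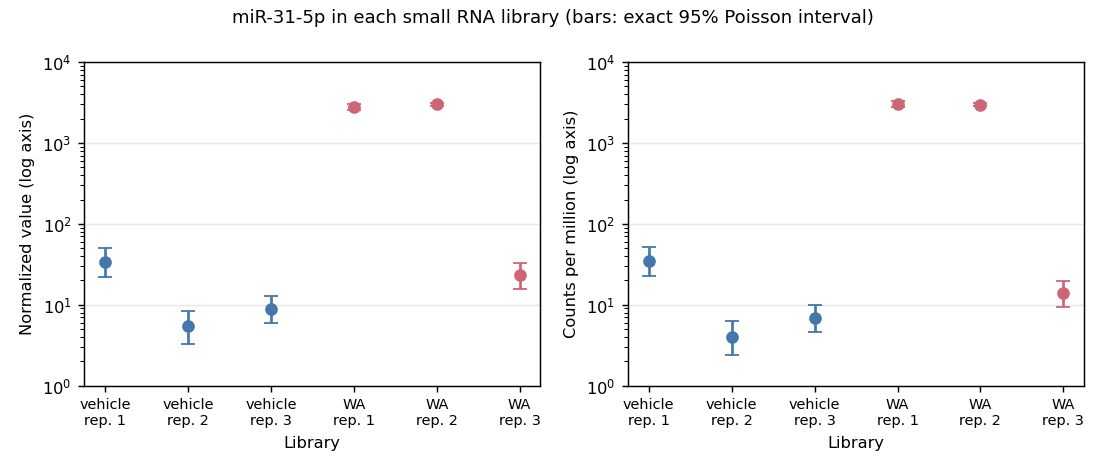
Level of miR-31-5p in each library as normalized value (left) and as CPM, scaled to the reads of all listed miRNAs (right), both on log axes. Points are single libraries, vehicle in blue and WA in red, and bars are exact 95% Poisson intervals, which cover counting error only. WA replicates 1 and 2 sit at 2777 and 3005 normalized units and the other 4 libraries between 5.43 and 33.9.

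The libraries were ordered by their normalized value of miR-31-5p, and each was compared with its neighbour by exact 95% Poisson intervals of the reads. The order from the lowest was vehicle replicate 2, vehicle replicate 3, WA replicate 3, vehicle replicate 1, WA replicate 1 and WA replicate 2. Vehicle replicate 2 (interval 3.27 to 8.47) and vehicle replicate 3 (5.94 to 12.7) overlapped. WA replicate 3 (15.8 to 33.1) and vehicle replicate 1 (21.9 to 50.0) also overlapped, as did WA replicate 1 (2534 to 3037) and WA replicate 2 (2863 to 3152). Between these pairs the intervals were apart, with a ratio of 2.63 from vehicle replicate 3 to WA replicate 3 and of 82.0 from vehicle replicate 1 to WA replicate 1. These intervals hold counting error only and not the spread between cultures.

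Scaled as CPM to the reads of all listed miRNAs in the library, miR-31-5p was 35.2, 3.98 and 6.91 under vehicle. Its CPM under WA was 3062, 2978 and 13.9, so the same libraries were high on either scale. By normalized value it ranked 41 and 40 from the highest of the 413 miRNAs in WA replicates 1 and 2. It ranked 254 in WA replicate 3 and 260, 347 and 339 in vehicle replicates 1 to 3. With every library thinned at random to the 156442 reads of the smallest, 6, 0 and 1 reads remained under vehicle and 479, 474 and 3 under WA.

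The mean normalized value under vehicle was 16.1 ± 15.5 (SD, n = 3). Under WA it was 1935 ± 1660 (SD, n = 3), or 2891 ± 161 (SD, n = 2) without replicate 3. On the scale of log2(normalized value + 1), the mean was 3.70 with an SD of 1.27 in vehicle-treated cells and 9.20 with an SD of 3.98 in WA-treated cells. The log2 fold change was 5.50 with a standard error of 2.00 from the limma fit across 327 miRNAs, and no p is given for it. The median log2 fold change of those 327 miRNAs was -0.91, so miR-31-5p lay 6.41 above the median. Of the 327 miRNAs, 2 had a larger log2 fold change than miR-31-5p and 44 a larger standard error. This rank describes values by which the miRNA was chosen. miR-155-5p, given below, lay under the filter and is not among the 327. Without WA replicate 3 the log2 fold change was 7.79 with a standard error of 0.873, and without WA replicate 1 or 2 it was 4.37 or 4.32. Without vehicle replicate 1 it was 6.21.

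WA replicates 1 and 2 were the 2 highest libraries for 69 of the 413 miRNAs, or 16.7%, and the 2 lowest for 157, or 38.0%. For each of the 69, the lower of these WA values plus 1 was divided by the highest other value plus 1. This ratio was 79.7 for miR-31-5p and 6203 for miR-155-5p, the only miRNA with a larger one, and the median was 2.40. miR-155-5p, an immune cell miRNA that is also known as a promoter of invasion, read 2.71, 0 and 1.22 with vehicle, against 26488, 24844 and 3.01 with WA. As counts of highest and lowest libraries, these carry no test. In WA replicates 1 and 2, 166 and 146 of the 413 miRNAs were listed at 0. With vehicle it was 21, 3 and 2, and in WA replicate 3 it was 52. A count of 0 allows up to 17.4 and 5.36 in WA replicates 1 and 2, so a lowest place there need not be a measured decrease. Such zeros also enter the median log2 fold change and the calls of lower miRNAs.

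The miRNAs whose pattern was most like that of miR-31-5p were taken as the 8 with the highest Pearson correlation of log2(normalized value + 1) over the 6 libraries. They were chosen among 371 miRNAs that reached 10 in 2 or more libraries, and the correlation was over 0.9 for 18 of these. With 6 points, of which WA replicates 1 and 2 lie far from the rest, it mostly tells which miRNAs were high in these libraries, and no p is given. The correlation was 0.991 for miR-129-5p and miR-155-5p, 0.979 for miR-590-3p, 0.973 for miR-130b-3p and 0.961 for miR-147b-5p. It was 0.952 for miR-345-3p, 0.950 for miR-335-5p and 0.945 for let-7f-5p, which fell to 0.502 with upper-quartile scaling. The mature strands are shown to compare their seeds, in capitals, with that of miR-31-5p, except for miR-147b-5p.
miR-129-5p: cUUUUUGCggucugggcuugc
miR-155-5p: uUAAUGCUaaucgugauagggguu
miR-590-3p: uAAUUUUAuguauaagcuagu
miR-130b-3p: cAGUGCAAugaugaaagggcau
miR-345-3p: gCCCUGAAcgaggggucuggag
miR-335-5p: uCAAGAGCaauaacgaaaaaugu
let-7f-5p: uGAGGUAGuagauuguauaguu
Among these 7 strands and miR-31-5p, 0 pairs shared a seed. Their GC content ran from 19.0% for miR-590-3p to 68.2% for miR-345-3p.

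miR-129-5p, which is abundant in the nervous system, had one of the highest correlations with miR-31-5p. It had 62.3, 6.85 and 13.4 under vehicle and 2180, 2905 and 63.9 under WA. Its WA replicate 3 value was close to that of vehicle replicate 1. miR-335-5p, known like miR-31-5p as a suppressor of breast cancer metastasis, read 98.9, 34.6 and 30.9 with vehicle, against 383, 354 and 26.3 with WA. let-7f-5p, of the let-7 family that restrains growth and stem cell programmes, was high in every library, from 19746 in WA replicate 3 to 67211 in WA replicate 2. Of the other 4, miR-130b-3p had 77.2, 80.5 and 60.8 under vehicle and 1548, 1451 and 156 under WA. All its WA libraries thus lay above all vehicle libraries. The same order held for miR-129-5p, miR-155-5p and miR-345-3p, with 63.9, 3.01 and 3.01 in WA replicate 3 against highest vehicle values of 62.3, 2.71 and 0.611. miR-590-3p, at 25.1 to 31.2 under vehicle, reached 528 and 368 in WA replicates 1 and 2 and 27.8 in WA replicate 3. miR-147b-5p, at 6.42 to 21.7 under vehicle, reached 458 and 507 in these libraries and 3.01 in WA replicate 3. miR-345-3p was at most 0.611 under vehicle, where a count of 0 allows up to 4.06, and had 69.6, 39.3 and 3.01 under WA. The high correlation of let-7f-5p came with a much smaller difference between libraries than that of miR-31-5p.

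**Figure D2:**
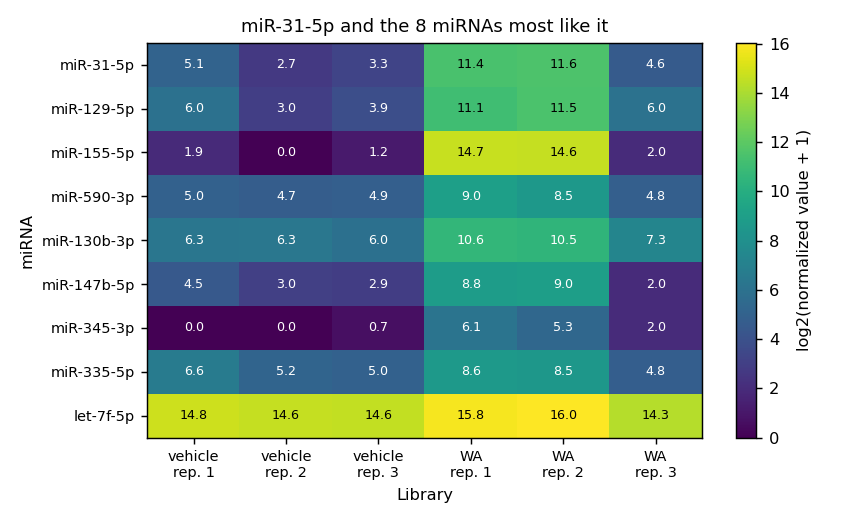
Heat map of log2(normalized value + 1) for miR-31-5p and the 8 miRNAs with the most similar pattern, with libraries in columns and the value printed in each cell. All 9 rows are highest in WA replicates 1 and 2, and let-7f-5p is high in every library.

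Other listed miRNAs with the seed of one of these 8 were also compared with miR-31-5p. miR-130b-3p had 2 listed miRNAs with its seed, miR-301a-3p and miR-454-3p, whose correlations with miR-31-5p were 0.820 and 0.733. let-7f-5p had 8, from let-7b-5p at -0.82 to miR-98-5p at 0.898, so none of the 10 was over 0.9. let-7b-5p had 4422, 10398 and 7266 under vehicle and 394, 924 and 64669 under WA, with WA replicates 1 and 2 as its lowest libraries. Members of the let-7 family differ by few bases, and the rule for reads shared between them is not given in the sources used here.

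Position on the chromosome was also compared. The nearest listed miRNA was miR-491-5p, at a distance of 0.796 Mb on chromosome 9 and on the other strand. It read 27.1, 55.4 and 44.9 with vehicle, against 0, 7.15 and 376 with WA. It was thus lowest where miR-31-5p was highest, although the WA replicate 1 value of 0 allows up to 17.4 at that depth. Of the 26 other listed miRNAs with a mature strand on chromosome 9, WA replicates 1 and 2 were the 2 highest libraries for 4, or 15.4%, close to the 16.7% of all listed miRNAs. Some of the 26, such as let-7f-5p and miR-24-3p, also have copies on other chromosomes.

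The cell type markers were then set beside miR-31-5p. All 6 miRNAs listed as abundant in MDA-MB-231, among them miR-221-3p, miR-222-3p and miR-100-5p, were above 0 in every library. They summed to 317033 to 614417 normalized units under vehicle and 381325 to 439746 under WA. The sum hides large differences of single members. miR-21-5p ran from 27029 in WA replicate 3 to 403216 in vehicle replicate 2. miR-221-3p ran from 10869 in vehicle replicate 3 to 169488 in WA replicate 3, and miR-100-5p from 26306 in vehicle replicate 1 to 158098 in vehicle replicate 2. Several markers of other cell types set WA replicates 1 and 2 apart from the other libraries, upward or downward. Of the 7 epithelial markers 5 were listed, and miR-200a-3p, miR-200b-3p, miR-200c-3p and miR-429, which hold epithelial cells in place by repressing ZEB factors, were listed at 0 in WA replicates 1 and 2, which allows up to 17.4 and 5.36. miR-200c-3p had 145, 78.8 and 127 under vehicle, and 165 in WA replicate 3. miR-200b-3p had 1459, 65.4 and 63.9 under vehicle, and 642 in WA replicate 3. MDA-MB-231 is known as a mesenchymal-like line, and which of these levels is usual for it was not tested. The epithelial sum was 1862, 204 and 261 under vehicle. Under WA it was 800.02, 1006 and 1242, and in WA replicates 1 and 2 it was miR-203a-3p alone.

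The 4 listed of 6 fibroblast and smooth muscle markers, miR-143-3p, miR-145-5p, miR-199a-3p and miR-199b-3p, were also highest in WA replicates 1 and 2. Their sum was 16.3, 62.5 and 51.0 under vehicle and 6255, 8053 and 133 under WA. miR-145-5p was the lowest of them under WA, at 11.6, 21.4 and 4.51. Its WA replicate 1 value is 2 reads, under the 17.4 that a count of 0 allows there, so its place in that library is not resolved. miR-199a-3p and miR-199b-3p share the same mature strand, so how their reads are split rests on the authors' counting. The 2 endothelial markers summed to 225, 1445 and 1786 with vehicle and 58.0, 21.4 and 5910 with WA. miR-486-5p, the only listed one of 7 blood markers, had 875, 492 and 911 under vehicle and 0, 5.36 and 1223 under WA. The 2 listed of 3 nervous system markers, miR-9-5p and miR-129-5p, summed to 140, 365 and 373 with vehicle and 2702, 3518 and 168 with WA. In WA replicates 1 and 2 most of the sum was miR-129-5p, at 2180 and 2905, which was picked above for its likeness to miR-31-5p. miR-9-5p had 77.2, 358 and 360 under vehicle and 522, 613 and 104 under WA. The liver marker miR-122-5p was at most 14.3, and 0 of 3 muscle markers were listed. The part of these differences in the level of miR-31-5p was not tested. In bulk RNA, fewer cells of a type and less of a miRNA per cell cannot be told apart.

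**Figure D3:**
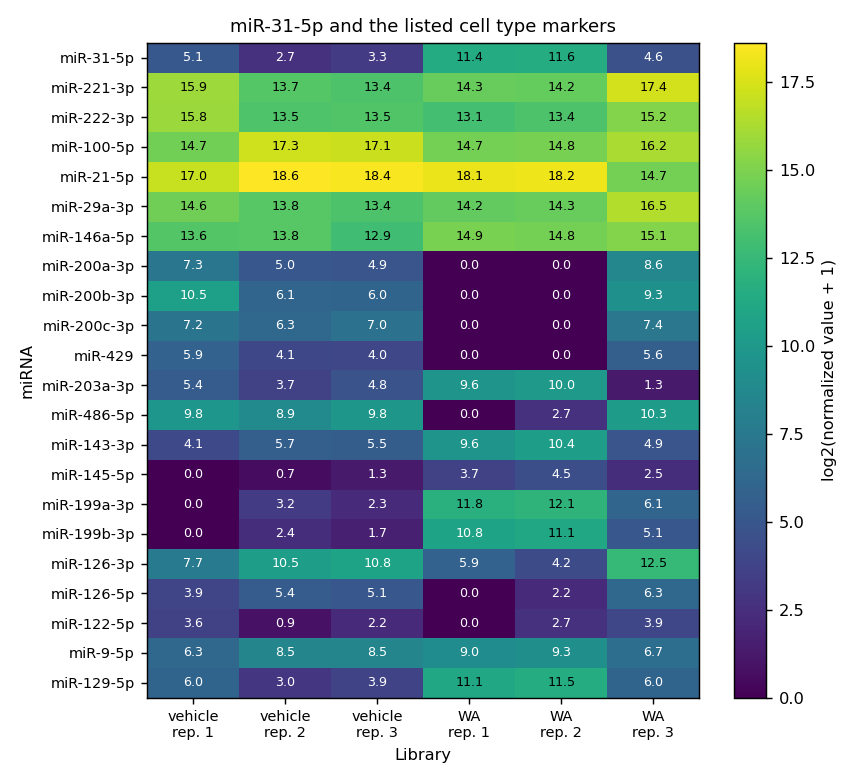
Heat map of log2(normalized value + 1) for miR-31-5p and the listed cell type markers, with libraries in columns and the value printed in each cell. The rows of miR-200a-3p, miR-200b-3p, miR-200c-3p and miR-429 are 0 in WA replicates 1 and 2, the libraries in which miR-31-5p is highest, and above 0 in the other 4.

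Other miRNAs known to suppress or promote invasion and metastasis were tested by limma with Benjamini-Hochberg adjustment over all 327 miRNAs. Of 28 such miRNAs beside miR-31-5p, 23 were listed and 21 passed the filter of 10 or more in 3 or more libraries. At a limma adjusted p under 0.05, 1 of the 21 was lower in WA-treated cells and 0 were higher, beside 5.50% of all tested miRNAs called in either direction, 5.20% lower and 0.306% higher. The study set its criteria, an unadjusted p under 0.05 with a log2 fold change of at least 1.5 either way, on DESeq2 results. Applied here to the limma fit, they called the same 1 of 21, beside 26.3% of all, 21.7% lower and 4.59% higher. These counts are therefore not those of the study. The study describes its replicates as independent, while the labels do not say whether they are separate cultures, and these p-values measure the spread between the libraries. The median log2 fold change was 0.34 over the 21 and -0.91 over all 327 miRNAs.

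The called miRNA was miR-10b-5p, a promoter of metastasis induced by the transcription factor TWIST. Its vehicle values were 12.2, 10.9 and 15.3, and all 3 WA libraries listed it at 0, so the groups did not overlap. Its limma adjusted p was 0.0276. It passed the filter only through the vehicle libraries, so a call could go in no direction but lower, and it is no support for a change of the list. A count of 0 allows up to 17.4 in WA replicate 1, above every vehicle value, and up to 5.36 and 2.25 in WA replicates 2 and 3. Its fitted fold change is therefore drawn in the figure but not given as a number. Its limma adjusted p was 0.105 without vehicle replicate 2 and 0.156 without vehicle replicate 3. It was 0.175 without WA replicate 1 and 0.155 without WA replicate 2.

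Among the 12 tested suppressors, 6 had a positive and 6 a negative log2 fold change and 0 were called by limma. miR-146a-5p, which restrains NF-kB signalling, read 12584, 14221 and 7772 with vehicle, against 30030, 27574 and 36093 with WA. The groups did not overlap. The log2 fold change was 1.48 with a standard error of 0.642, and the adjusted p by limma was 0.198. miR-34a-5p, which p53 induces, had 70.4, 18.0 and 24.5 under vehicle and 139, 123 and 412 under WA, with a limma adjusted p of 0.202. The study, with DESeq2, lists miR-34a-5p among its most increased miRNAs and reports the increase in quantitative PCR as well. miR-200c-3p, at 0 in WA replicates 1 and 2 and above every vehicle value in WA replicate 3, had a limma adjusted p of 0.226. Its fitted fold change depends on the pseudocount and is drawn in the figure but not given as a number.

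Among the 9 tested promoters, miR-10b-5p was the one called. miR-21-5p, the most abundant of them in 5 of the 6 libraries, read 134806, 403216 and 347168 with vehicle, against 277045, 290979 and 27029 with WA. Its limma adjusted p was 0.602. miR-155-5p was listed but lay under the filter, and was not tested.

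Without WA replicate 3, limma called 8 of the 21 at an adjusted p under 0.05, or 38.1%, beside 45.0% of all tested miRNAs, 9.79% higher and 35.2% lower. The suppressors miR-335-5p and miR-203a-3p were higher in WA replicates 1 and 2 than under vehicle, by 2.93 and 5.17 on the log2 scale. Their limma adjusted p was 0.0223 and 0.00303 in this fit, and 0.445 and 0.527 with all 6 libraries. In WA replicate 3 both lay below every vehicle value. This fit rests on WA replicates 1 and 2, by whose high values miR-31-5p was chosen. miR-335-5p was also picked above for its likeness to miR-31-5p. These p-values are therefore no independent support for a change of either miRNA. miR-203a-3p had 42.0, 12.0 and 26.6 under vehicle, 800.02 and 1006 in WA replicates 1 and 2, and only 2 reads in WA replicate 3. The suppressors miR-126-3p, miR-200a-3p, miR-200b-3p, miR-200c-3p and miR-429 were lower, as was the promoter miR-10b-5p. All of these but miR-126-3p were at 0 in WA replicates 1 and 2. They passed the filter through other libraries and could be called only lower, so their calls are no support for a change of the list. miR-200b-3p, with 1459, 65.4 and 63.9 under vehicle, was at 0 in WA replicates 1 and 2 and at 642 in WA replicate 3. miR-126-3p, a miRNA of endothelial cells, read 211, 1403 and 1753 with vehicle, against 58.0, 17.9 and 5834 with WA.

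**Figure D4:**
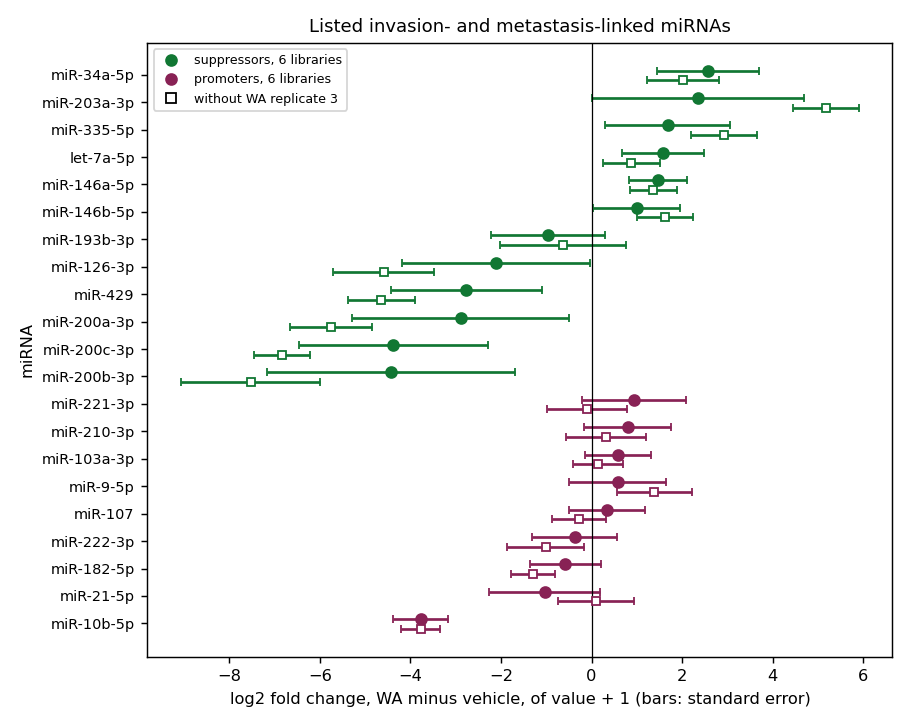
Log2 fold change (WA minus vehicle) of normalized value + 1 for the 21 tested miRNAs linked to invasion and metastasis, with suppressors in green and promoters in purple. Filled circles are fits to the 6 libraries, open squares fits without WA replicate 3, and bars are standard errors. miR-10b-5p is the 1 miRNA called with all libraries, and the miR-200 members move further from 0 without WA replicate 3.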

How the data were processed

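Small RNA was sequenced from 3 vehicle-treated and 3 WA-treated samples of MDA-MB-231 cells. Adapters were removed by the authors, and reads were aligned to GRCh38.p10 with Bowtie, those of other noncoding RNAs were discarded, and mature human miRNAs were counted. The deposited signal is the read count per miRNA divided by a size factor of the library. The deposited fold ratio, log2 fold change and p-values of the authors' own comparison were not used. Reads were read off as whole multiples of a smallest step per library, within 0.001 for 100% of values. Only 20 to 36 miRNAs per library lay at 1 to 5 steps, so that 1 step is 1 read remains an assumption, and the planned count models were not run. Sums of 156442 to 4778066 reads per library over the listed miRNAs set the precision, and exact Poisson intervals cover counting error only.

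limma 3.58.1 in R 4.3.3 was fitted to log2(normalized value + 1), unpaired and two-sided, with a variance trend and Benjamini-Hochberg adjustment, over 327 miRNAs that reached 10 in 3 or more libraries. On this scale the fold change of a low miRNA is understated. Descriptive values were computed with numpy 2.4.6, scipy 1.17.1 and pandas 2.3.3 in Python 3.11.15. On data simulated for this comparison, with true log2 fold changes of 3 either way, 53 of 53 changed miRNAs of 360 were called and 1 unchanged one. The simulated libraries had a fixed dispersion, and none stood apart from its group as WA replicate 3 did. The result therefore does not show how many real changes the fit would find in these libraries. Named miRNAs were miR-31-5p, the 8 most like it, those sharing a seed, the metastasis list and the cell type markers. miR-491-5p was named after its values were seen, as the nearest on the chromosome. The member and lists were chosen with earlier results of these data known. Alternatives were other scalings, pseudocounts and filters, thinning, the replicate number as a block and each library left out.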

Additional observations from a re-analysis of the deposited data

How the results depend on the processing

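Tests of read counts were not run, since reads rest on an assumed step. The median log2 fold change of the 327 miRNAs was -0.91, -0.85 with total-count and -1.75 with upper-quartile scaling, and miR-31-5p lay 6.41, 6.39 and 6.45 above it. Over other scalings, pseudocounts and thinning its log2 fold change was between 4.70 and 6.54. Leaving out single libraries gave 4.32 to 7.79, the latter without WA replicate 3. These differ from 5.50 by less than the pooled SD of 2.95, which WA replicate 3 itself makes large.

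limma called 1 metastasis-linked miRNA at an adjusted p under 0.05. It called 0 with a pseudocount of 10 and 0 when 10 was required in every library, which takes miR-10b-5p out of the test, where 2 and 1 had an unadjusted p under 0.05. Leaving out single libraries gave 0 to 8, the most without WA replicate 3, and where it gave 0, 1 had an unadjusted p under 0.05. By the study's criteria it was 1, 4 with no filter, 2 with the replicate block and 1 to 10 on leaving out single libraries, 10 without WA replicate 3. With a pseudocount of 10, and with 10 required in every library, the 1 called was miR-34a-5p, higher, and not miR-10b-5p. Over all tested miRNAs, 18 had a limma adjusted p under 0.05. The number was 7 with a pseudocount of 0.1, 7 with a pseudocount of 10, 53 with no filter, 0 with 10 required in every library (29 at an unadjusted p under 0.05) and 0 to 147 on leaving out single libraries. It was 0 without vehicle replicate 2 or 3 or WA replicate 1 or 2, where 46 to 52 had an unadjusted p under 0.05, and 147 without WA replicate 3. By the study's criteria, applied to the limma fit, 86 were called, 139 with no filter, 28 with 10 required in every library and 46 to 167 on leaving out single libraries. The filters change how many miRNAs are tested. The cause of the other changes was not tested.

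Of the 8 miRNAs most like miR-31-5p, 6 or 7 were still among the first 8 with other scalings and a pseudocount of 10, and 4 to 8 with each library left out, fewest without vehicle replicate 1 or WA replicate 3. With upper-quartile scaling the correlation of let-7f-5p, the lowest of the 8, was 0.502 in place of 0.945. No pairing by replicate number was seen, since deviations from the group means correlated at -0.069, 0.057 and -0.087. With 3 libraries per group, and WA replicate 3 and vehicle replicate 1 apart from their groups, these values cannot exclude a pairing. With the replicate block 24 miRNAs were called at an adjusted p under 0.05, 15 of them among the 18. Every library's depth limits low values, most of all WA replicate 1, where 3 reads are a value of 17.4.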
